A study of Mus musculus with 2 samples.

Results

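Genes for the mitochondrial ribosome and for the nuclear-encoded respiratory chain were examined for regions in which methylated DNA was more abundant in Control than in Uhrf1 conditional knockout (cKO) chondrocytes. The 157 genes were chosen by symbol from 21887 protein-coding genes of the RefSeq gene table (GRCm38.p6, the assembly that mm10 names). They comprised 78 mitochondrial ribosome genes, with symbols starting in Mrpl or Mrps and a digit, and 79 respiratory chain genes. The latter had symbols starting in Nduf, Uqcr or Cox4 to Cox8, or were Sdha, Sdhb, Sdhc and Sdhd. A gene was counted as having a region when a listed region overlapped its annotated span widened by 5 kb on either side.

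Mitochondrial ribosomes translate the few proteins encoded by mitochondrial DNA, all of them parts of the oxidative phosphorylation machinery, whereas the ribosomal proteins themselves come from nuclear genes. The respiratory chain passes electrons from complex I (NADH dehydrogenase) and complex II (succinate dehydrogenase) through complex III (cytochrome bc1) to complex IV (cytochrome c oxidase). Most of these genes are expressed in nearly all cells and start in CpG islands, stretches rich in CpG that are usually free of methylation. Uhrf1 binds hemimethylated DNA after replication and recruits the maintenance methyltransferase Dnmt1. Cartilage lives at low oxygen tension and growth plate chondrocytes rely largely on glycolysis, with mitochondrial respiration nonetheless present.

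The data came from knee cartilage chondrocytes of C57BL/6 mice at postnatal day 3, Control or Uhrf1 cKO. Cells of both genotypes were grown to confluence and given recombinant human BMP-2, a cartilage growth factor, at 100 ng/ml for 24 hours, so no untreated group was available. DNA sheared to about 300 bp was enriched for methylated fragments by binding to MBD2, a methyl-CpG binding protein, and then sequenced (MBD-seq). The labels used here name neither the Cre driver of the knockout, nor the alleles of the Control mice, nor the number of animals behind a library. Gene expression was not measured, so the chondrocyte label could not be set against marker genes.

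There was 1 library per genotype, with 9782276 Control and 15039206 cKO tags kept after duplicate removal, which took away 55.2% of Control and 23.9% of cKO tags. Without replicates, no genotype difference could be checked against the spread between samples, and no test was made. The deposited list holds 35861 regions on 21 chromosomes, all with more Control signal, and regions with more cKO signal were not analysed here. Each region carries its Control tag count, its fold (Control signal at the summit relative to a local background from the cKO library) and its false discovery rate (FDR, from swapping the libraries). These are the authors' own values in the authors' deposited table and are used here to describe and rank regions. A large fold can rest on few tags, so tags are given beside it. The mitochondrial chromosome, with 13 protein-coding genes in the gene table, is not among these 21 chromosomes.

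The starts of 4 genes show what the 300 bases around a start held, and how near a region came. Each sequence runs 5′ to 3′ on the gene's strand, from 250 bases before the listed start to 50 after it, as given by RefSeq for GRCm38.p6, with every CpG in capitals. Uqcrc1, a core protein of complex III, and Mrps24, of the small ribosomal subunit, are shown because theirs are CpG-containing starts with strong regions close by. Ndufb4b, a short copy of a complex I subunit gene, is shown for its CpG-poor start beside a region. Cox8b, a muscle-type complex IV subunit gene, is shown as the member start with the fewest CpGs.
Uqcrc1: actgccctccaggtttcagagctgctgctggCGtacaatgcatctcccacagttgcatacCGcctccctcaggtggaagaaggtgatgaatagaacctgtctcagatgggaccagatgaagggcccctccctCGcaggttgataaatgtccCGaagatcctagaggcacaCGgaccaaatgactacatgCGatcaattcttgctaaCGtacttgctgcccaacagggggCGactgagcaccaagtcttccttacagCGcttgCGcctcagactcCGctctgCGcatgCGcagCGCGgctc
Mrps24: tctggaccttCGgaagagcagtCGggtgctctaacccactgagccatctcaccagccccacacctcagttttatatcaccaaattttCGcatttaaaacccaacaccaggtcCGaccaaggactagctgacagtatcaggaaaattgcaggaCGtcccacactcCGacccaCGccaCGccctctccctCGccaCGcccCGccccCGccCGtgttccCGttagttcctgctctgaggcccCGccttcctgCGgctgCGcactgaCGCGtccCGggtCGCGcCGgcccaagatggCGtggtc
Ndufb4b: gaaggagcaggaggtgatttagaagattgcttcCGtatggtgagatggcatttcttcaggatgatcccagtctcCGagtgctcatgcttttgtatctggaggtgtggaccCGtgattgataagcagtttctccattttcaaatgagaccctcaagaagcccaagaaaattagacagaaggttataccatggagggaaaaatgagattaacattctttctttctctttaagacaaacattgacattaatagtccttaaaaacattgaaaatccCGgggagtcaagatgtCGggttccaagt
Cox8b: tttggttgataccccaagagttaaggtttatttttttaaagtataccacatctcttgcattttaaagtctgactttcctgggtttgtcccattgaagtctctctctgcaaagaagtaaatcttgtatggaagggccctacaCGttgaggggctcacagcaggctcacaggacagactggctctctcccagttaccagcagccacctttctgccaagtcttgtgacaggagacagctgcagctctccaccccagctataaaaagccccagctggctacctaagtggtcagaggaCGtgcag

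The Uqcrc1 window (chr9:108936398-108936697, plus strand) held 15 CpGs, and the nearest region began 865 bp beyond its end, within the gene. The Mrps24 window (chr11:5707652-5707951, minus strand) held 24 CpGs and lay 35 bp from a region upstream of the gene. The Ndufb4b window (chr19:25032858-25033157, plus strand) held 5 CpGs, with a region 322 bp away. The Cox8b window (chr7:140900397-140900696, minus strand) held 2 CpGs, and its nearest region was 45976 bp away. None of these 4 windows was itself overlapped by a region.

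A region was found within 5 kb of 81 of the 157 genes (51.6%), against 47.4% of all protein-coding genes. The count was 42 of 78 (53.8%) for the mitochondrial ribosome and 39 of 79 (49.4%) for the respiratory chain. Both shares lay near the background. The 81 genes had 119 regions, 66 beside ribosomal and 53 beside respiratory chain genes, and no region was shared by 2 members. A single region was found for 54 genes, 2 regions for 16 and 3 regions for 11, and 76 genes had none. With regions of an FDR of at most 5%, 59 of 157 genes (37.6%) had a region, against 35.1% of all. Of the 81 genes, 22 had no region at that limit.

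The 2 families stood further apart in the share of genes with a region in the span than in the share within 5 kb. Within the annotated span itself, 31 ribosomal genes (39.7%) and 24 respiratory chain genes (30.4%) had a region, against 38.2% of all protein-coding genes. That share depended on gene length. In spans of up to 5 kb it was 28.0% for the ribosome and 15.4% for the respiratory chain (all genes 4.61%). From 5 to 10 kb it was 36.7% and 23.1% (all 18.8%), and from 10 to 25 kb 37.5% and 55.6% (all 35.0%). Over 25 kb, with 7 and 9 genes, it was 100% and 44.4% (all 66.1%). For 11 ribosomal and 15 respiratory chain genes, the regions lay in the flanks alone. Of the 55 regions with a summit outside the member's span, 23 had that summit inside another protein-coding gene, such as Helq and Abraxas1 beside Mrps18c or Tcf3 beside Uqcr11. Such a region can be assigned to the neighbour as well as to the member. Without chromosome 11 the shares in the span were 34.3% for the ribosome and 30.3% for the respiratory chain, against 38.0% of all genes. The difference between the families was not tested.

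**Figure D1:**
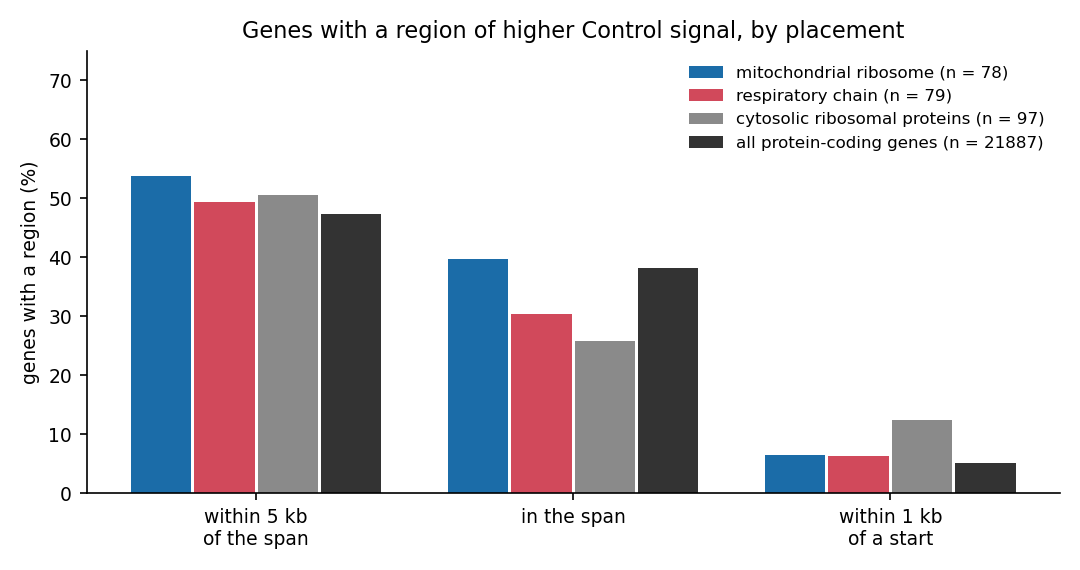
Share of genes (%, vertical axis) with a region of higher Control signal within 5 kb of the span, in the span, or within 1 kb of a start, for 78 mitochondrial ribosome, 79 respiratory chain, 97 cytosolic ribosomal protein and 21887 protein-coding genes. The bars for the 2 mitochondrial families stand at 53.8% and 49.4% within 5 kb and at 39.7% and 30.4% in the span.

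The background depended on gene length. The median member spanned 7.59 kb, against 17.2 kb for all protein-coding genes, and the families were alike (7.69 kb for the ribosome, 7.39 kb for the respiratory chain). Among genes of up to 5 kb, 26 of 51 members (51.0%) had a region within 5 kb, against 848 of 5034 genes (16.8%), or 21.1% when olfactory and vomeronasal receptor genes were left out. The shares were 14 of 25 for the ribosome and 12 of 26 for the respiratory chain. From 5 to 10 kb, 24 of 56 members (42.9%) had a region, against 33.9% of all, with 14 of 30 ribosomal and 10 of 26 respiratory chain genes. From 10 to 25 kb, it was 18 of 34 (52.9%, against 46.5%), and over 25 kb it was 13 of 16 (81.2%, against 70.2%). In the 10 to 25 kb class the ribosome had 7 of 16 (43.8%) and the respiratory chain 11 of 18 (61.1%). All 7 ribosomal genes over 25 kb had a region: Mrps28, Mrpl48, Mrpl1, Mrps9, Mrps6, Mrps27 and Mrps35. Of the 9 respiratory chain genes of that length, 6 had one.

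**Figure D2:**
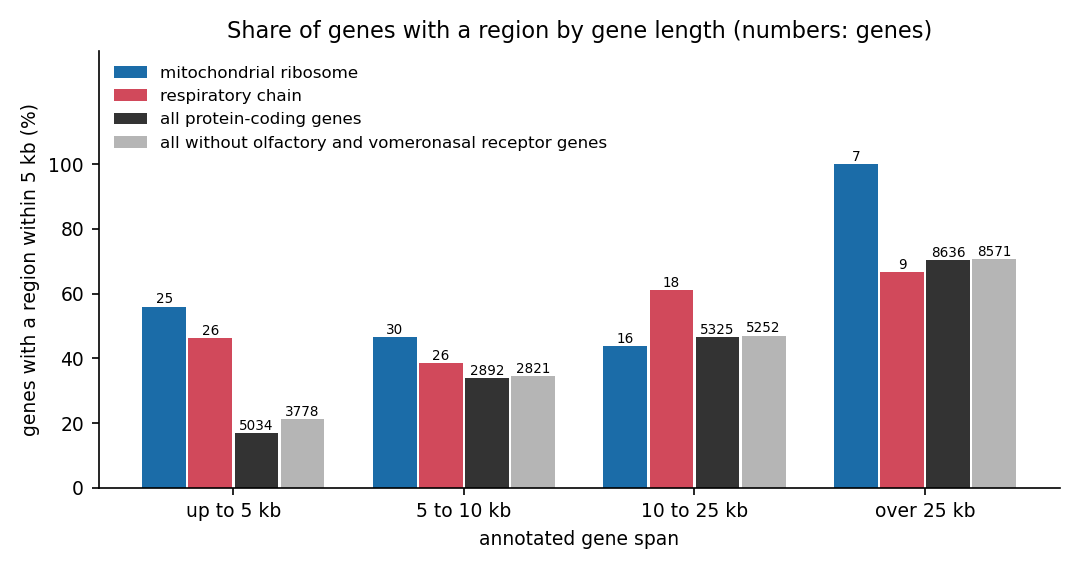
Share of genes (%, vertical axis) with a region within 5 kb, by annotated span (horizontal axis), with the number of genes above each bar. In the shortest class the mitochondrial families stand at 56.0% and 46.2%, and all protein-coding genes at 16.8%, or 21.1% without olfactory and vomeronasal receptor genes.

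Per length of DNA, the members' widened spans held 33.1 regions per Mb (119 regions in 3.60 Mb), against 19.05 for all protein-coding genes. The density was 37.1 per Mb for the ribosome (95% exact Poisson interval 28.7 to 47.2) and 28.9 for the respiratory chain (21.6 to 37.8), and the 2 intervals overlapped. They cover counting error only. With a p of at most 1e-20 the order turned around, with 25.3 for the ribosome and 26.1 for the respiratory chain. The density of all genes also depended on length: genes of up to 5 kb had 16.8 regions per Mb, those of 5 to 10 kb 26.3, those of 10 to 25 kb 27.9 and those over 25 kb 18.1. Members had 55.6, 37.2, 32.9 and 16.1 in the same classes. The members' higher density thus lay in spans of up to 25 kb, most of all in the shortest. A higher density in short spans was not particular to the members. Cytosolic ribosomal protein genes had 39.9 regions per Mb in spans of up to 5 kb and 79.6 from 5 to 10 kb. In these classes 31 of 71 (43.7%) and 11 of 15 (73.3%) of them had a region within 5 kb. Their 4 genes of 10 to 25 kb had none. The member windows also held more neighbours, with a median of 1 other protein-coding gene, against 0 for all genes. Among genes of up to 10 kb with no other gene in the window, 10 of 20 members (50%) had a region, against 13.7% of all, or 17.6% without the receptor genes. With 1 other gene it was 16 of 40 (40%, against 32.1%), and with 2 or more it was 24 of 47 (51.1%, against 36.3%). In these classes, in order, the ribosome had 4 of 11 (36.4%), 8 of 19 (42.1%) and 16 of 25 (64%). The respiratory chain had 6 of 9 (66.7%), 8 of 21 (38.1%) and 8 of 22 (36.4%), the last at the background. The order of the families thus differed between the classes. Local CpG content, which limits what MBD2 can capture, was not matched.

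The difference between the families was smaller without chromosome 11. This chromosome was singled out after its values were seen. It carries 14 members, of which 12 had a region (85.7%), against 51.8% of all its protein-coding genes. The ribosomal share there was 10 of 11: Mrps24, Mrpl22, Mrps23, Mrpl27, Mrpl10, Mrpl45, Mrpl58, Mrps7, Mrpl38 and Mrpl12. Among spans of up to 10 kb on this chromosome, 10 of 12 members had a region, against 29.7% of all. Without chromosome 11 the share within 5 kb was 32 of 67 (47.8%) for the ribosome and 37 of 76 (48.7%) for the respiratory chain, with 47.0% for all genes, so that the order turned around. The ribosome stayed ahead in the share with a region in the span (34.3% and 30.3%, against 38.0%) and in density (31.6 and 27.8 per Mb, against 18.7). These values were not matched for gene length. The respiratory chain has only 3 genes on chromosome 11, of which Uqcr10 and Ndufaf8 had a region. At the other end, 2 of 9 members on chromosome 2 had one (all genes there 45.2%), and 3 of 11 on chromosome 6 (43.4%).

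**Figure D3:**
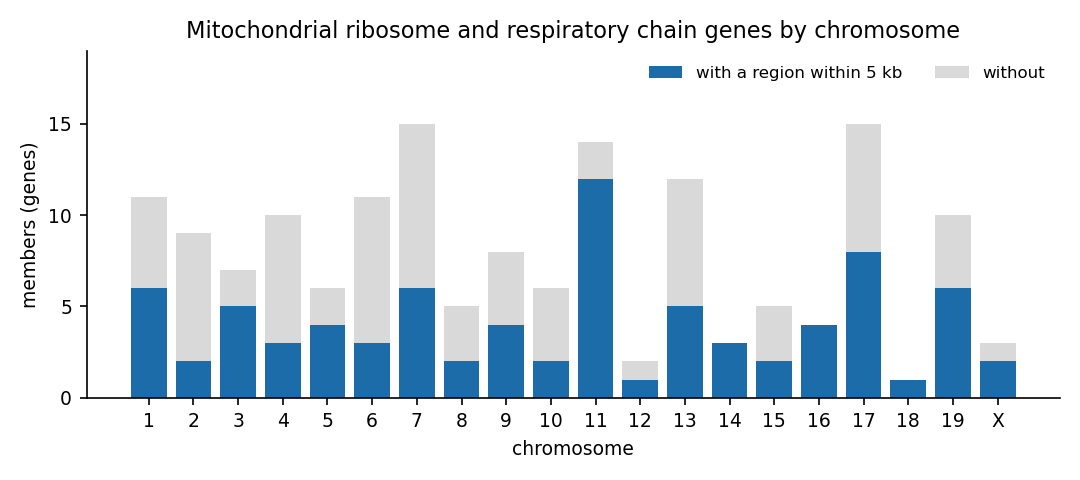
Number of mitochondrial ribosome and respiratory chain genes on each chromosome (horizontal axis), split into those with a region within 5 kb (blue) and those without (grey). Chromosome 11 has the most members with a region, 12 of 14, whereas chromosome 7, with 15 members, has 6.

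Starts carried few regions, for the members as for all protein-coding genes. Across the 132 members whose starts and strand RefSeq lists, 0 of 140 start windows of 300 bases were overlapped by a region, which allows a share of up to 2.14%. For all protein-coding genes it was 175 of 21263 windows (0.823%). Member windows held a median of 20 CpGs (interquartile range 15 to 26), against 13 (4 to 24) for all, and 131 of the 140 had at least 10. Among all windows, the share overlapped by a region was 0.464% with 0 to 4 CpGs, 2.12% with 5 to 9, 1.22% with 10 to 19 and 0.340% with 20 or more. The class of 20 or more CpGs, which held 74 of the 140 member windows, was thus the one overlapped least. The 2 families had like CpG counts, with medians of 21 and 19.

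Within 1 kb of a start, 10 of 157 members had a region (6.37%, against 5.06% of all), 5 in each family. For the 25 members with no listed start, either end of the span was used, which is a wider search. It brought in 2 of the 10, Cox6c and Ndufb4c, both of the respiratory chain. With an FDR of at most 5%, 8 members remained (5.10%, against 3.10%). The summits of 4 regions lay within 1 kb of the most upstream start of the 132 genes, or 1.52 per 100 genes and kb. From 1 to 10 kb downstream the rate was 4.88, and from 10 to 1 kb upstream it was 3.70. The same dip was seen over all protein-coding genes, with 1.30 near the start, 2.41 downstream and 2.24 upstream. The rate beside the members' starts rests on those 4 summits. By overlap, a region lay within 1 kb of the start of 10 of 140 member windows (7.14%), against 3.56% of all windows. These windows belonged to 8 genes, since 3 of them were starts of Mrpl2 beside 1 region, so the window share counts that region more than once.

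**Figure D4:**
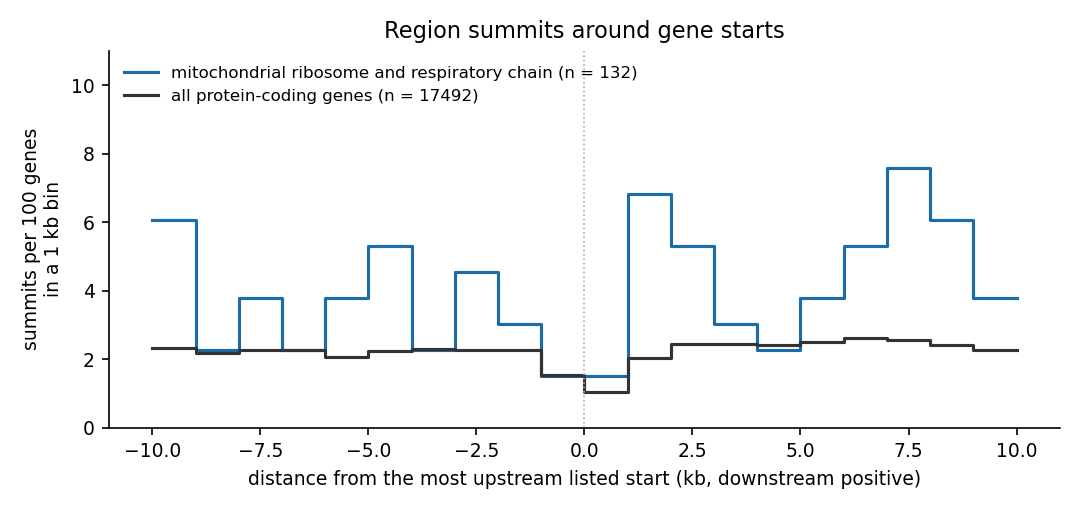
Region summits per 100 genes in 1 kb bins (vertical axis) by distance from the most upstream listed start (horizontal axis, downstream positive), for 132 members and 17492 protein-coding genes. Both lines are lowest in the bins beside the start, where the member line rests on 2 summits a bin. The highest member bin holds 10.

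The 10 members with a region at a start were led by Uqcrc1. Its region (chromosome 9, 108937562 to 108938340) began 914 bp into the gene and held 384 Control tags at 25.47-fold (FDR 0%). In complex III, Uqcr10, a small subunit, had a region 784 bp into the gene with 167 tags (13.06-fold, FDR 0.02%). In the small subunit, the Mrps24 region lay 285 bp upstream of the start (chromosome 11, 5707986 to 5708719), with 343 tags, 9.39-fold and an FDR of 0%. Mrps12, whose bacterial counterpart belongs to the decoding centre of the ribosome, had a region 999 bp from the start, at the limit, with 106 tags (10.21-fold, FDR 4.01%). The Mrps36 region lay 560 bp into the gene, with 173 tags at 6.11-fold (FDR 0.48%). Mrps36 bears a ribosomal name, but its product is now known as a part of the 2-oxoglutarate dehydrogenase complex. In the large subunit, Mrpl2 had a region 907 bp into the gene with 150 tags (13.01-fold, FDR 0.02%). Mrpl57 had one 454 bp upstream with 86 tags (7.51-fold, FDR 11.96%), whose summit lay in the neighbouring gene Ska3.

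The remaining 3 were Ndufb4b, Ndufb4c and Cox6c. Ndufb4b and Ndufb4c are short models of 471 and 485 bp, related to the complex I gene Ndufb4, and lie within other genes. The Ndufb4b region, 371 bp from its start, had 154 tags at 6.6-fold (FDR 0.38%) with its summit in Dock8. The Ndufb4c region overlapped the model and had 131 tags at 8.49-fold (FDR 0.28%) with its summit in Mroh5. Ndufb4 itself had a region only 1391 bp beyond its 3′ end (87 tags, 7.48-fold, FDR 28.63%). How reads that match several copies were placed is not given in the sources used here, so tags at these copies are uncertain. The Cox6c region lay within the span, with 82 tags at 9.17-fold (FDR 9.25%), and without a listed strand it could belong to either end.

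At both ends of the span, a larger share of ribosomal than of respiratory chain genes had a region. Of 132 members with a listed strand, 14 had a region within 1 kb of the 3′ end of the span (10.6%, against 6.35% of 17492 genes). They were 10 of 69 ribosomal genes (14.5%) and 4 of 63 respiratory chain genes (6.35%). With an FDR of at most 5% the counts were 7 (10.1%) and 4 (6.35%), against 4.18% of all genes. Within 1 kb of the 5′ end of the span, 7 of 69 ribosomal genes (10.1%) and 3 of 63 respiratory chain genes (4.76%) had a region, against 3.78%. The ribosomal excess was thus not particular to the 3′ end. Mrps16 had a region 63 bp beyond its end with 175 tags (12.27-fold, FDR 0%). Mrpl18, whose product also takes part in import of 5S rRNA into mitochondria, had one 185 bp beyond its end with 256 tags (16.76-fold, FDR 0%). Regions ran across the annotated end of Mrpl28, Mrpl11, Mrpl16, Ndufs3, Cox7a2l and Ndufb4b, and those of Mrpl11 and Mrpl16 had an FDR of 49.04% and 100%. These measures at the span ends were chosen after the data were seen, and the difference between the families was not tested.

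In the large subunit, 26 of 49 genes had a region (53.1%, against 47.4% of all genes). Their 43 regions had a median fold of 11.46. Mrpl28 had the largest fold at an FDR of at most 5%, 35.35 with 66 tags (FDR 0.02%), but its region lay 4830 bp beyond the gene, with the summit in Axin1. A second Mrpl28 region, across the 3′ end, had 223 tags (13.44-fold, FDR 0%), and another had 48 tags and an FDR of 100%. Mrpl58, which releases peptides from stalled mitochondrial ribosomes, had 1 region inside the gene with 112 tags (34.82-fold, FDR 0%). Mrpl42 had a region of 233 tags (25.74-fold, FDR 0%) and another of 26 tags (27.01-fold, FDR 67.76%). The 2 Mrpl42 regions show a like fold at very different depth. Mrpl46 had the largest fold of the subunit, 42.85, from 26 tags (FDR 7.49%).

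Several large subunit genes had 3 regions each: Mrpl18, Mrpl22, Mrpl27, Mrpl28, Mrpl39 and Mrpl45. The 3 Mrpl45 regions lay close together inside the gene (chromosome 11, 97320210 to 97322811), with 105, 72 and 224 tags and folds of 6.78, 23.68 and 11.06. The FDR was 14.96% for the first, 0.07% for the second and 0% for the third. The 3 Mrpl39 regions also lay inside the gene, and 1 of them, with 158 tags at 13.93-fold, had an FDR of 0%, whereas the others stood at 27.95% and 42.59%. Mrpl27 had regions on both sides of the gene, with 261 tags upstream (14.94-fold) and 136 downstream (14.91-fold), and one of 39 tags inside (15.31-fold, FDR 50.76%). Mrpl47 had the most tags of any ribosomal region, 402, at 20.16-fold (FDR 0%).

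In the small subunit, 16 of 29 genes had a region (55.2%, against 47.4% of all genes). They had 23 regions with a median fold of 10.45. Mrps5 led with 35.4-fold and 125 tags inside the gene (chromosome 2, 127600106 to 127600665, FDR 0%). Mrps18c followed with 22.72-fold and 78 tags (FDR 0.02%), 1631 bp beyond the gene, and had 2 further regions of 152 tags (8.07-fold, FDR 0.07%) and 55 tags (FDR 100%). Its paralogue Mrps18a had 2 regions in the flanks, and Mrps18b had none within 5 kb. Mrps21 had an 18.17-fold region of 64 tags (FDR 0.38%) and a 12.89-fold region of 173 tags (FDR 0%), both beyond its 3′ end. Mrps9, a gene of 54.5 kb, had 3 regions inside, of which the one with the largest fold, 26.37, rested on 11 tags and had an FDR of 100%, and the one with 124 tags was at 11.36-fold (FDR 0.02%).

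**Figure D5:**
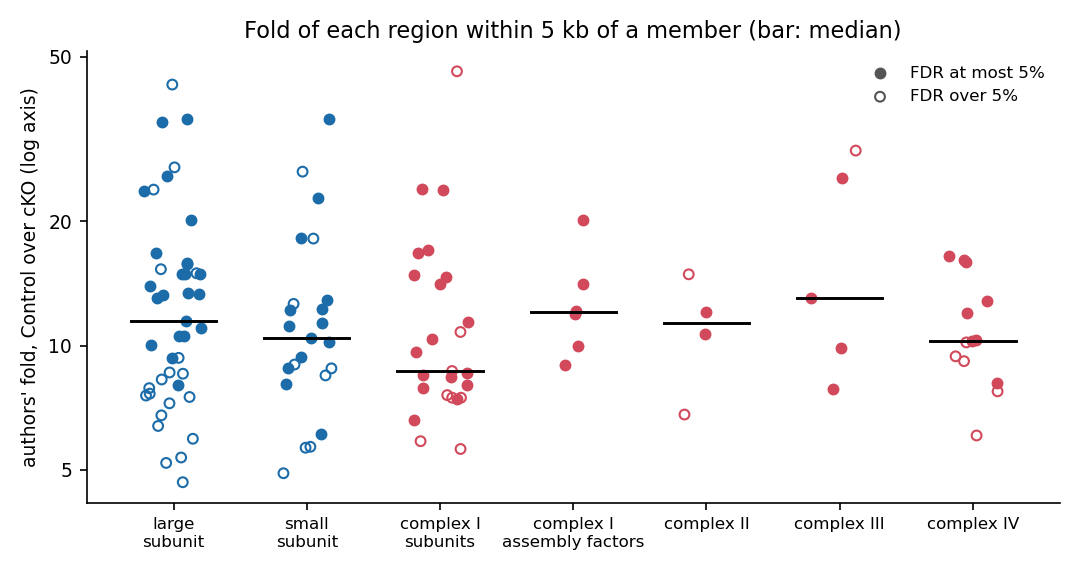
The authors' fold (log axis) of each of the 119 regions within 5 kb of a member, by ribosomal subunit and respiratory complex, with filled points for an FDR of at most 5% and a bar at the median. The medians run from 8.68 for complex I subunits to 13.06 for complex III, and the 2 highest points, at 46.14 and 42.85, are open.

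Genes grouped as complex I subunits had a region in 19 of 41 (46.3%, against 47.4% of all genes). They had 25 regions with a median fold of 8.68. The grouping was by symbol alone and took in Ndufa4 and Ndufa4l2, neither of which had a region within 5 kb. Ndufs4, an accessory subunit needed for the activity and stability of complex I, had a region of 152 tags at 23.91-fold (FDR 0%) deep inside its 100.3 kb span. Ndufs8, an iron-sulphur subunit, had 3 regions, of which the one inside the gene (chromosome 19, 3910787 to 3911405) had 232 tags at 23.87-fold (FDR 0%). The other 2 lay in Tcirg1 and Aldh3b1, at 7.88-fold and 8.68-fold. Ndufv3, of the NADH-oxidising module, also had 3 regions, with 297, 277 and 174 tags at 16.77-fold, 17.06-fold and 14.08-fold, all at an FDR of 0%. Ndufa9 had the largest fold among all members, 46.14, but from 27 tags, with an FDR of 10.63%. The genes of other core subunits differed among themselves. Ndufs1 had its stronger region, of 212 tags, in its flank (8.05-fold, FDR 0.02%). Ndufs3 had one of 143 tags across its 3′ end (14.66-fold, FDR 0.04%), whereas Ndufs7 had none within 5 kb.

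Complex I assembly factors help build the complex without being part of it. Of their 8 genes, Ndufaf2, Ndufaf6, Ndufaf7 and Ndufaf8 had regions (50%, against 47.4% of all genes). All 6 of their regions had an FDR of at most 0.23%. Ndufaf6 had the most tags of any member region, 483 at 8.96-fold, inside the gene. Ndufaf2 had 2 regions in its 106.1 kb span, with 314 tags at 14.11-fold and 100 tags at 11.93-fold. Ndufaf8 had a 20.17-fold region of 92 tags 1710 bp beyond the gene, and the Ndufaf7 region (229 tags, 12.14-fold) lay in Cebpz.

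Complex II genes had regions in 3 of 4 (75%, against 47.4% of all genes). Their median span was 19.7 kb, and of all genes of 10 to 25 kb 46.5% had a region within 5 kb. Sdhb, the iron-sulphur subunit, had 1 inside the gene with 207 tags (12.05-fold, FDR 0%). Sdhd, a membrane anchor, had 1 inside with 121 tags (10.65-fold, FDR 0.38%) and one outside with 57 tags (6.81-fold, FDR 100%). Sdhc, the other anchor, had a region of 61 tags at 14.88-fold, just over the FDR limit at 5.28%. Sdha, the flavoprotein that oxidises succinate, had none, and its nearest region was 66.9 kb away.

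In complex III, 4 of 8 genes had a region (50%, against 47.4% of all genes): Uqcrc1, Uqcr10, Uqcrfs1 and Uqcr11. Uqcrb, Uqcrc2, Uqcrh and Uqcrq had none within 5 kb. Uqcrfs1, the Rieske iron-sulphur protein, had 1 inside the gene with 100 tags (9.87-fold, FDR 0.78%). The Uqcr11 region had 15 tags and a 29.66-fold excess, with an FDR of 100%. The 2 core protein genes thus differed, with 384 tags beside the Uqcrc1 start and no region closer than 28.4 kb for Uqcrc2.

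In complex IV, 9 of 18 genes had a region (50%, against 47.4% of all genes), and 3 (Cox5a, Cox6c and Cox7a2l) had one in the span (16.7%, against 38.2%). These genes are short, with a median span of 4.65 kb, and of all genes of up to 5 kb 4.61% had a region in the span. Cox7a2l had 3 regions inside the gene with 142, 296 and 123 tags at 16.16-fold, 10.24-fold and 16.52-fold, and an FDR of at most 0.02%. Cox5a had a region of 159 tags at 12.01-fold (FDR 0%). The Cox4i1 region (160 tags, 8.11-fold, FDR 0.04%) and the Cox6a1 region (159 tags, 12.8-fold, FDR 0.02%) lay in the flanks. Among 8 genes for isoforms made in particular tissues or conditions, Cox7a1, the heart and muscle form, had 2 flanking regions, the stronger of 172 tags at 15.9-fold (FDR 0%) in Capns1. Cox7b2 had 1 (81 tags, FDR 13.29%), and Cox4i2, Cox6a2, Cox6b2, Cox8b, Cox8c and Ndufa4l2 had none within 5 kb. The 8 have a median span of 1.68 kb, and of all genes of up to 5 kb 16.8% had a region within 5 kb. The nearest region was over 20 kb away for 5 of the 8 (62.5%, against 34.6% of all genes).

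The regions of the 2 families had like folds, but a larger share of the respiratory chain regions had a low FDR. The median fold was 11.11 for the ribosome and 10.29 for the respiratory chain, against 11.92 for regions near all protein-coding genes, with median tag counts of 100.5, 131 and 108. An FDR of at most 5% was listed for 37 of 66 ribosomal regions (56.1%) and 37 of 53 respiratory chain regions (69.8%), against 58.3%. An FDR of 100% was listed for 8 ribosomal (12.1%) and 2 respiratory chain regions (3.77%), against 15.3%. A fold of at least 20 was reached by 17 regions, and 11 of them had an FDR of at most 5%. The 7 regions with under 30 tags all had an FDR of at least 7.49%, and the 2 largest folds among the members rested on 27 and 26 tags.

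The 5 kb limit divided close neighbours. The nearest members inside it were Cox6a1, Mrpl52 and Mrps7, with a region 4.37, 4.46 and 4.58 kb from the span. Just outside lay Ndufa7 at 5.01 kb (19.79-fold, 110 tags), Ndufa10 at 5.42 kb and Mrps2 at 5.79 kb (12.57-fold, 373 tags). The members farthest from any region were Mrpl21 (262 kb), Cox7c (154 kb) and Mrps33 (149 kb). The nearest region was over 20 kb away for 41 members (26.1%), against 34.6% of all protein-coding genes.

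Other genes that serve these machines had regions in varied shares, to be read against 47.4% of all protein-coding genes within 5 kb, 5.06% at a start, and 70.2% within 5 kb for genes over 25 kb. ATP synthase genes had a region in 9 of 20 (45.0%). Assembly factors for complexes II to IV had one in 21 of 33 (63.6%), of which Cox18, Coa4, Cmc2 and Coa3 had it at a start. The median span of these 33 genes was 9.70 kb, and of all genes of 5 to 10 kb 33.9% had a region. Their density was 44.7 regions per Mb, against 33.1 for the members. Translation factors and tRNA synthetases of mitochondria had one in 19 of 28 (67.9%), with Gfm1, Gfm2 and Mtrf1 at a start, and their median span was 18.9 kb. Genes of mitochondrial DNA maintenance and transcription had one in 9 of 15 (60.0%), with Mgme1 at a start. Of 9 regulators, among them the coactivator gene Ppargc1a, 8 had one, at a median span of 36.3 kb. Cytosolic ribosomal protein genes, with a median span of 3.35 kb, had one in 49 of 97 (50.5%), at 31.4 regions per Mb. Of these, 12 (12.4%) had one at a start, against 10 of 157 members.

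The start windows of the members shared short motifs more often than those of all genes. The motifs were GCGCATGC, as in sites of nuclear respiratory factor 1, CCGGAAGT, as in sites of ETS factors such as GABP, and AAGATGGCG, as in sites of YY1, each searched on both strands. GCGCATGC was found in 17 of 140 member windows (12.1%, against 3.52% of all), in the Uqcrc1 window among others. CCGGAAGT was found in 16 (11.4%, against 5.15%), with 12 of 75 in ribosomal and 4 of 65 in respiratory chain windows. AAGATGGCG was found in 14 (10%, against 1.83%), including the Mrps24 window. At least 1 of the 3 was found in 44 member windows (31.4%, against 9.88%), and 3 windows held 2 or more. Among windows with at least 10 CpGs, the shares were 13.0%, 11.5% and 10.7%, against 5.93%, 8.42% and 3.13%. For CCGGAAGT in these windows it was 15.5% in the ribosome and 6.67% in the respiratory chain, the latter under the 8.42% of all. All 3 motifs contain CpG, and no member window was overlapped by a region.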

How the data were processed

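MBD-seq of 1 Control and 1 Uhrf1 cKO library was analysed from the list of regions the authors deposited. Per the file headers, the authors called regions with MACS 1.4.2, with Control as the enriched and cKO as the background library, at a p limit of 1e-10, keeping at most 1 tag per position and scaling the larger library towards the smaller. The modelled shift was 58 bp with 55 bp tags, which can shape region lengths and summits. Per the submitters' processing notes the build was mm10. The aligner is not given in the sources used here. The authors' deposited values are the Control tag count of a region, its score (minus 10 times the log10 of p, per the file headers), its fold (a ratio) and its FDR in percent. Tag counts, from 11 to 6918 over all regions, limit the precision of a region.

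Genes came from the RefSeq table of GRCm38.p6, and starts, strand and start sequences from the RefSeq promoter table, which lists 132 of the 157 members. For other genes either end stood for the start. Exons and introns were not analysed here. Counts of genes with a region were set beside all 21887 protein-coding genes of the 21 chromosomes. With 1 library per genotype no test was made, and Poisson intervals (95%) cover counting error only. The members, lists and alternatives were chosen with earlier results of these data known. Named were the members with a region at a start, in each subunit or complex the 3 largest folds at an FDR of at most 5% and the genes with the most regions, those nearest the 5 kb limit, and some of the other members with counts, fold and FDR. The overlap counting was tested on simulated data. Tables were handled with pandas 2.3.3 and NumPy 2.4.6 in Python 3.11.15, intervals computed with SciPy 1.17.1 and figures drawn with Matplotlib 3.10.9. A result on 1 gene is not reported here, and not every member with a region is named.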

Additional observations from a re-analysis of the deposited data

How the results depend on the processing

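Stricter p limits (1e-15, 1e-20), an FDR limit of 5%, and requiring the summit, or at least 50% of the region, to lie in the widened span left the counts of members with a region within 1.5 times the counts given (77, 71, 59, 81 and 81 of 157). At a p of at most 1e-20 the order of the families turned around, with 35 of 78 ribosomal and 36 of 79 respiratory chain genes. With the gene span alone or widened by 1 kb, the respiratory chain count fell from 39 to 24 in either case, whereas the ribosome had 31 and 36, so the gap between the families was wider without the outer flanks. Widening by 10 kb gave 49 ribosomal and 50 respiratory chain genes, which turned that order around. Counts at starts were small and followed the window: within 500 bp they were 2 and 2, and within 2 kb they were 12 for the ribosome and 11 for the respiratory chain. Taking either end of the span instead of a start, an alternative chosen after the data were seen, gave 16 ribosomal and 7 respiratory chain genes. Region density was 25.3 per Mb for the ribosome at a p of at most 1e-20 (all genes 13.8), under the respiratory chain's 26.1. It was 20.8 for the ribosome and 20.2 for the respiratory chain with an FDR of at most 5% (all genes 11.1). Fewer regions are counted at these limits by construction. No paired analysis was possible because each genotype has 1 library and the list gives tag counts of the Control library alone.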
